A study of Rattus norvegicus with 8 samples.

Results

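The 10 transcription factor genes Foxp1, Foxp2, Bcl11b, Ebf1, Isl1, Meis2, Rarb, Rxrg, Ikzf1 and Six3 were described here because they are known to build or maintain the identity of striatal projection neurons. They were chosen by symbol, with earlier results of these data known, and 10 of 10 were found among the 17337 genes of the count table and among the 12014 genes with enough reads to be tested. Messenger RNA was sequenced from the striatum of 8 male Sprague-Dawley rats of wild-type genotype, whose age is not given in the sources used here. In the METH group, 4 rats self-administered methamphetamine (METH), a psychostimulant that raises extracellular dopamine, at 0.05 mg/kg per infusion through a jugular catheter for 2 h per day. In the saline group, 4 rats self-administered saline after the same food training and catheter surgery. Both groups therefore carried the surgery and the lever training, and each library came from the striatum of 1 rat. From larger groups, the paper chose rats with a stable lever response over the last days of self-administration for its plasma sampling. It does not state whether the sequenced rats were the same. How much of the striatum was taken is not given in the sources used here. The comparison asked whether transcripts that define the principal neurons of the striatum differed after METH intake. Levels are CPM, the reads of a gene scaled to a common library size after normalization between libraries, and differences are log2 fold changes of METH over saline.

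Projection neurons make up most of the neurons of the striatum and are GABAergic. Those of the direct pathway express dopamine D1 receptors and project to the substantia nigra, and those of the indirect pathway express D2 receptors and project to the globus pallidus. Foxp1, Bcl11b, Meis2 and Rarb are expressed widely among projection neurons, whereas Ebf1, Isl1 and, to a lesser degree, Foxp2 are known from the direct pathway, and Ikzf1 and Six3 from the development of the indirect pathway. Rarb and Rxrg encode nuclear receptors that bind DNA as a heterodimer and respond to retinoids.

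None of the 10 genes differed between METH and saline rats past a false discovery rate (FDR) of 0.05 in the quasi-likelihood test of edgeR adjusted over all 12014 genes, a threshold that 0.516% of the tested genes passed. The lowest FDR among them was 0.263. Rxrg was 1.22-fold higher and Six3 1.21-fold higher on average in METH rats, and both had an unadjusted p below 0.05. The widely expressed factors Foxp1, Bcl11b, Meis2 and Rarb and the direct pathway factors Ebf1, Isl1 and Foxp2 had METH to saline folds of 0.909 (Isl1) to 0.999 (Foxp2), and the 95% interval of each included 1.

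Promoters were read for the 7 members with an entry in the RefSeq promoter table of assembly GRCr8, a later build than the rn6 assembly of the counts. Foxp2, Bcl11b and Meis2 had no entry. Each window holds 250 bases before and 50 bases from the annotated start site, and positions are counted from the start site. Motifs of factors among the members were searched on both strands, and a match is a description of letters only. The promoters of Rxrg and Six3 are shown because these genes had the lowest p-values, that of Rarb because it holds a retinoic acid response element, and that of Foxp1 because it holds a motif of its own forkhead family. Capitals mark the motif.

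Rarb, chr15:11336142-11336441, plus strand, GRCr8: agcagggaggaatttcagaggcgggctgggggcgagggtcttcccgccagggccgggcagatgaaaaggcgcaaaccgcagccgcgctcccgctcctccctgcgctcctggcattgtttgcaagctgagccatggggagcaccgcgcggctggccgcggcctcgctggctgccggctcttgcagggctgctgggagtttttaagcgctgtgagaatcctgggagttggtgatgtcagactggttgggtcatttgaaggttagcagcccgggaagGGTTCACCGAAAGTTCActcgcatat
Rxrg, chr13:82276237-82276536, plus strand, GRCr8: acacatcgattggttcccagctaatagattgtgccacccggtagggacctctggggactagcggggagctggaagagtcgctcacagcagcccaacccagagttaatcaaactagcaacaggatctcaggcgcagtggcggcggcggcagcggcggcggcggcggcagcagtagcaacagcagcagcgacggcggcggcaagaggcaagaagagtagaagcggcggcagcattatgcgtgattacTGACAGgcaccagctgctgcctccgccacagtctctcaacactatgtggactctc
Six3, chr6:14796207-14796506, minus strand, GRCr8: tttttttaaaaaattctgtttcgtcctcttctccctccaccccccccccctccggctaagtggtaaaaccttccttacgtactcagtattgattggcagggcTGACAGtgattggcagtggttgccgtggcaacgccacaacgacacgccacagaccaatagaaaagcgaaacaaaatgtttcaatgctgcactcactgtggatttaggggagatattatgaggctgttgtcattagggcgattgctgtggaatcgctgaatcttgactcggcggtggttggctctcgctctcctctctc
Foxp1, chr4:133353231-133353530, minus strand, GRCr8: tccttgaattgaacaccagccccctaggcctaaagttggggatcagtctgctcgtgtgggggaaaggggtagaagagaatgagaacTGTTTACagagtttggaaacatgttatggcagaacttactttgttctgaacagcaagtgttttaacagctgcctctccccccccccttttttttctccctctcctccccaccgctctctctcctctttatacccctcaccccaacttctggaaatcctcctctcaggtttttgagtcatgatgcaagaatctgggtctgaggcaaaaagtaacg

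In the Rarb window, GGTTCA and AGTTCA, direct repeats separated by 5 bases, began at position 25. These exact letters, with any 5 bases between them, were held by 3 of 33469 RefSeq promoters of the same length (0.00896%). Repeats with other letters were not searched, so this share does not show how rare such response elements are. Rarb is a known target of its own receptor class through such a repeat. The forkhead motif TGTTTAC began at position -164 of Foxp1 and was found in 3.78% of promoters. The Meis motif TGACAG began at position -5 of Rxrg and at position -148 of Six3, and 19% of promoters held it. The Ikaros motif TGGGAA, held by 25.7% of promoters, was matched once, on the opposite strand of the Rxrg window at position -237. The Ebf motif, TCCC and GGGA separated by 2 bases and held by 0.834% of promoters, was not matched in any of the 7 windows.

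The libraries held 18135939 to 21211920 reads counted in genes. The tissue label was checked against defining genes. Ppp1r1b, which encodes the phosphoprotein DARPP-32 of projection neurons, ranged from 6782 to 10285 CPM, Drd1 from 450.2 to 515.0 CPM and Drd2 from 424.1 to 562.9 CPM, so that markers of both pathways were present in every rat. Th, a marker of dopamine neurons that are not resident in the striatum, was at or below 0.95 CPM. Saline rat 1 stood apart in the summed level of 9 cortical projection neuron markers, with 115.6 CPM against 31.6 to 43.1 CPM in the other rats, and in Slc17a7, the cortical vesicular glutamate transporter, with 65.7 CPM against 3.12 to 12.2 CPM. METH rat 3 stood apart on the first principal component of all tested genes, at 39.5 against -24.6 to 5.29, and had the highest summed level of 10 projection neuron effector genes. For Rxrg and Six3, the values without these rats are given beside the result. In tissue RNA, fewer cells of a type and less RNA per cell cannot be told apart.

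Foxp1 and Foxp2 encode forkhead repressors, of which Foxp1 is found in both projection neuron classes. Foxp1 was 97.2, 88.1, 126.9 and 124.3 CPM in saline rats 1 to 4 and 99.9, 122.9, 96.8 and 107.0 CPM in METH rats 1 to 4. All 4 METH values lay inside the saline range. It had a log2 fold change of -0.03 with a standard error (SE) of 0.12, and its 95% interval ran from -0.29 to 0.22 (edgeR FDR 0.945). Foxp2 was 56.1, 56.6, 65.0 and 63.8 CPM in saline rats 1 to 4 and 72.6, 69.0, 41.4 and 58.0 CPM in METH rats 1 to 4. The METH rats spread on both sides of the saline range, with rats 1 and 2 above it and rat 3 below it. Their standard deviation (SD) was 14.04 CPM against 4.68 CPM in saline rats, around means of 60.3 and 60.4 CPM, and the log2 fold change was -0.002 (SE 0.14, edgeR FDR 0.998). Reads of Foxp1 may be shared with Eif4e3, which overlaps it in the GRCr8 RefSeq annotation and is in the count table, because the library kit does not mark strand.

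**Figure D1:**
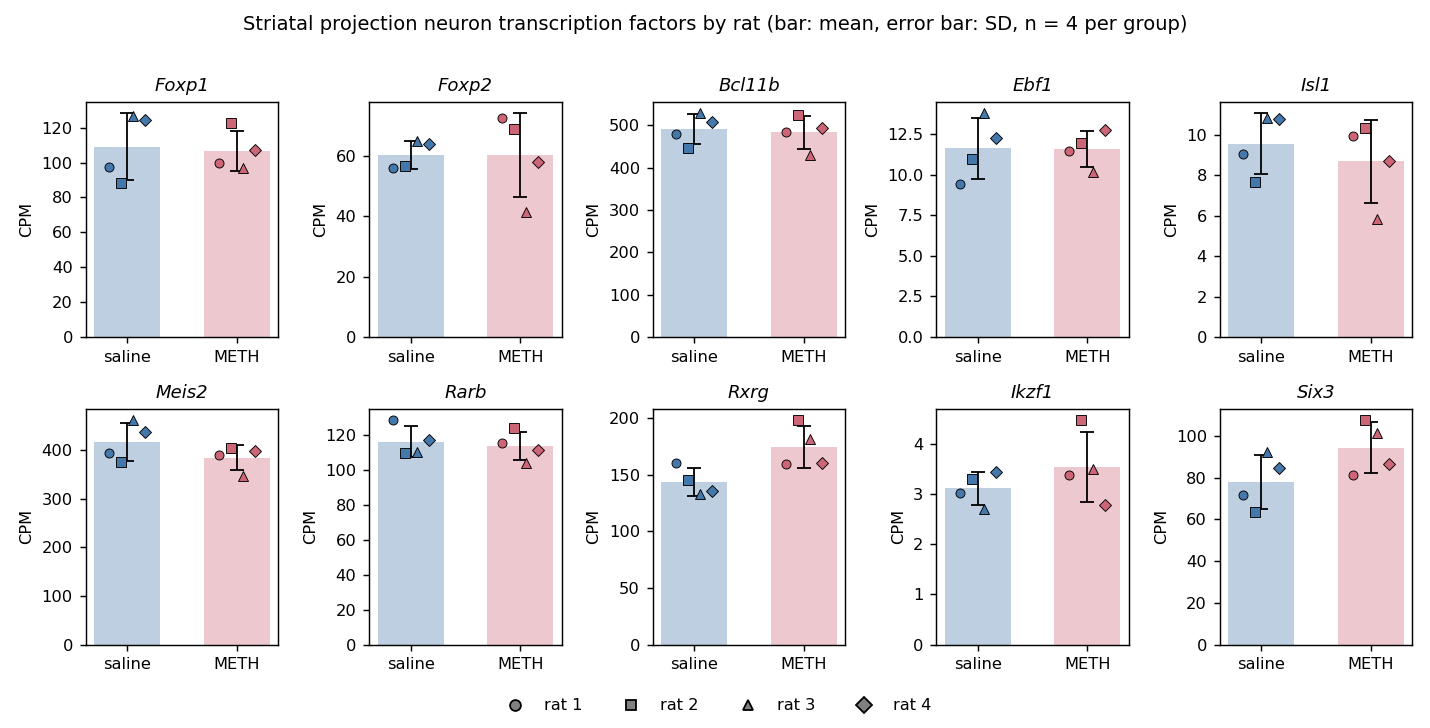
Levels of the 10 transcription factor genes, 1 panel per gene, with CPM on the vertical axis from 0 and the saline and METH groups on the horizontal axis; points are single rats with 1 marker shape per rat number, bars are group means and error bars are SD with 4 rats per group. Groups overlap in all 10 panels, and Rxrg (143.7 CPM in saline, 175.0 CPM in METH) and Six3 (77.9 and 94.2 CPM) have the widest separation of means relative to their spread.

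Bcl11b, which encodes the zinc finger protein CTIP2 needed for projection neuron differentiation, was 479.0, 446.4, 529.2 and 506.5 CPM in saline rats and 483.0, 524.5, 429.9 and 493.7 CPM in METH rats. METH rat 3 was the lowest of all rats, and the other 3 METH rats lay within the saline range. Its log2 fold change of -0.02 (SE 0.08) had a 95% interval of -0.20 to 0.15, that is 0.873-fold to 1.11-fold. Meis2 encodes a homeodomain protein of the lateral ganglionic eminence, the embryonic source of projection neurons. It was 393.6, 376.3, 461.3 and 436.8 CPM in saline rats and 389.0, 404.6, 346.4 and 398.2 CPM in METH rats. Only METH rat 3 lay below every saline rat, and the group means were 417.0 ± 39.0 and 384.6 ± 26.2 CPM (SD, n = 4). The log2 fold change of Meis2 was -0.12 (SE 0.08, edgeR FDR 0.607), with a 95% interval from -0.30 to 0.06. In the GRCr8 RefSeq annotation, which is not the one of the counts, Bcl11b, Ebf1 and Meis2 overlap long noncoding RNA genes, and none of these has a row in the count table under that symbol.

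Among the direct pathway factors, Ebf1, an early B-cell factor that guides the differentiation of striatonigral neurons, was 9.44, 10.9, 13.8 and 12.3 CPM in saline rats and 11.4, 11.9, 10.2 and 12.8 CPM in METH rats. The METH values lay inside the saline range, and the means were 11.6 CPM in both groups (log2 fold change -0.006, SE 0.15, edgeR FDR 0.993). Isl1 encodes a LIM homeodomain protein of direct pathway precursors that adult cholinergic interneurons also express. Isl1 was 9.05, 7.65, 10.8 and 10.8 CPM in saline rats and 9.93, 10.3, 5.82 and 8.70 CPM in METH rats, from 103 to 228 reads per library. METH rat 3 was the lowest and the other 3 METH rats lay in the saline range. For Isl1, the log2 fold change was -0.14 (SE 0.19) with a 95% interval from -0.56 to 0.28, the second widest among the members. Of the cholinergic interneuron markers, Chat (log2 fold change 0.08) and Slc18a3 (0.08) had a higher mean in METH rats and Slc5a7 (-0.28), Lhx8 (-0.09) and Gbx2 (-0.14) a lower one, and none had an unadjusted edgeR p below 0.05. Slc5a7, the choline transporter, was lowest in METH rat 3 (23.8 CPM against 33.7 to 43.1 CPM in the other rats), as Isl1 was. Gbx2 was also lowest there (0.62 CPM), whereas Chat (32.4 CPM), Slc18a3 (28.1 CPM) and Lhx8 (13.6 CPM) were not. The part of cholinergic interneurons in the Isl1 value was not tested.

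Ikzf1 and Six3 are known from the indirect pathway. Ikzf1, which encodes the zinc finger protein Ikaros and is also expressed in immune cells, was 3.02, 3.30, 2.704 and 3.45 CPM in saline rats and 3.38, 4.47, 3.501 and 2.79 CPM in METH rats. It rested on 53 to 94 reads per library, and METH rats 2 and 3 lay above the saline range. Its log2 fold change was 0.18 (SE 0.23) and its 95% interval, -0.32 to 0.69, was the widest of the 10. Immune cell markers were counted beside it. Of 12 tested microglial and immune markers, Cx3cr1, the fractalkine receptor, passed the threshold with a lower level in METH rats (31.2 to 18.8 CPM, log2 fold change -0.73, edgeR FDR 0.0408), a call lost in 7 of 20 alternatives, and the summed level of the 13 listed markers was 396.8 to 461.7 CPM in saline and 358.9 to 433.4 CPM in METH rats. Their part in the Ikzf1 value was not tested.

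Six3 encodes a sine oculis homeodomain protein that acts in the generation of D2 receptor neurons. It was 71.7, 63.4, 92.2 and 84.4 CPM in saline rats and 81.4, 107.5, 101.4 and 86.7 CPM in METH rats. METH rats 2 and 3 lay above every saline rat, while METH rats 1 and 4 lay inside the saline range. The log2 fold change was 0.27 (SE 0.12, 95% interval 0.01 to 0.53), with an unadjusted p of 0.0414 and an FDR of 0.428 in edgeR. The exact permutation test over the 70 labelings of the 8 rats gave a two-sided p of 0.143. Without saline rat 1 and METH rat 3 the log2 fold change was 0.20, and the unadjusted edgeR p was 0.188. Without saline rat 2, the lowest rat for Six3, it was 0.19 with an unadjusted edgeR p of 0.135.

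The retinoid receptor genes Rarb and Rxrg encode partners on DNA. Rarb encodes the retinoic acid receptor of striatal projection neurons and was 128.3, 109.4, 110.0 and 116.9 CPM in saline rats and 115.5, 123.7, 104.1 and 111.2 CPM in METH rats. Its groups overlapped almost fully, with a log2 fold change of -0.03 (SE 0.08) and a 95% interval of -0.21 to 0.14. Rxrg encodes the retinoid X receptor that is enriched in striatum and was 160.4, 145.5, 132.7 and 136.1 CPM in saline rats and 159.5, 198.3, 181.5 and 160.7 CPM in METH rats. METH rats 2 and 3 lay above every saline rat. METH rat 4 did so only barely (160.7 CPM against 160.4 CPM in saline rat 1), and METH rat 1 lay just below saline rat 1. The log2 fold change of Rxrg was 0.28 (SE 0.09), a fold of 1.22 with a 95% interval of 1.06 to 1.40, and its unadjusted p of 0.00769 became an FDR of 0.263, rank 350 of the 12014 genes by p. The exact two-sided permutation p of Rxrg was 0.0571, and 0.0286 is the smallest that 4 rats against 4 can give. Without saline rat 1 and METH rat 3, the log2 fold change was 0.32 with an edgeR FDR of 0.370. Rxrg and Six3 were the 2 of 10 members with an unadjusted p below 0.05, both higher in METH rats, beside 11.1% of all tested genes, of which 6.26% were higher and 4.88% lower.

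**Figure D2:**
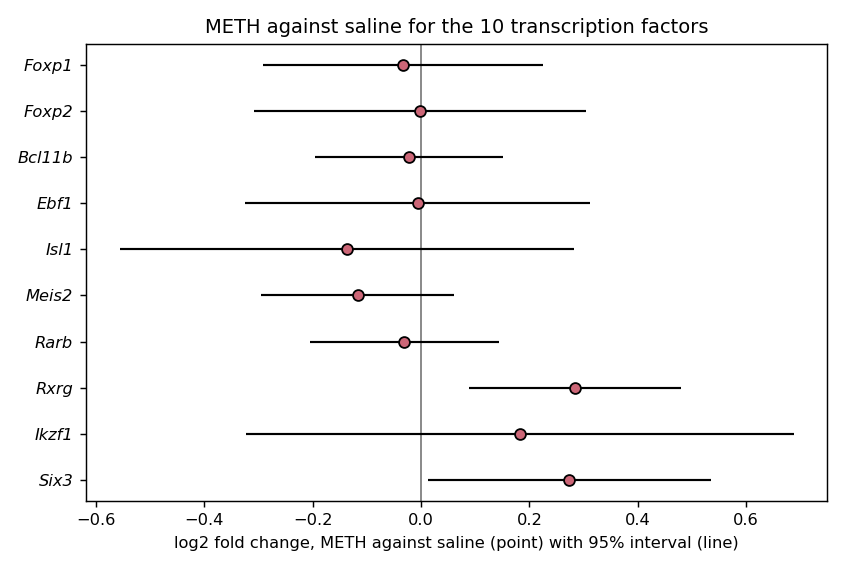
Log2 fold change of METH against saline on the horizontal axis for each of the 10 genes, with the estimate as a point and its 95% interval from the quasi-likelihood fit as a line; the vertical line marks 0. The intervals of Rxrg (0.09 to 0.48) and Six3 (0.01 to 0.53) lie above 0, and the other 8 cross it.

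Over the 10 members, 7 had a log2 fold change below 0, beside 51.4% of all tested genes, and 0 of 10 had groups without overlap, beside 6.39% of all tested genes. Their median log2 fold change was -0.01 and that of all tested genes was -0.01. The median size of the change, without its sign, was 0.08 for the members and 0.12 for all genes, and the median biological coefficient of variation was 12.3% for both. Bcl11b, Rarb, Meis2 and Rxrg varied least between rats of a group, with coefficients of 8.65% to 9.59%, and Isl1 and Ikzf1 most, with 19.3% and 20.8%.

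Effector genes of projection neurons, which encode the signaling proteins that these cells use when mature, were set beside the factors. Of 10 effector genes shared by both pathways, 0 passed the FDR threshold, and Ppp1r1b (log2 fold change 0.25), Arpp21 (0.20) and Ptpn5 (0.21) had an unadjusted p below 0.05. Over all tested genes, 11.1% had such a p and 6.39% had groups without overlap. Arpp21 encodes a cAMP-regulated phosphoprotein and Ptpn5 the striatal-enriched phosphatase STEP. The groups of Arpp21 and Ptpn5 did not overlap, whereas METH rat 4 lay inside the saline range for Ppp1r1b, whose log2 fold change was 0.14 without METH rat 3. The summed level of the 10 genes was 17207 to 18247 CPM in saline rats and 18532 to 22059 CPM in METH rats, so it moved the same way as Rxrg and Six3. Ppp1r1b has the largest share of this sum, with means of 7167 CPM in saline and 8496 CPM in METH rats. It reached 10285 CPM in METH rat 3. Taken singly, 7 of the 10 genes had a higher and 3 a lower mean in METH rats. When libraries were scaled to the summed counts of these genes, the log2 fold changes of Rxrg and Six3 were 0.13 and 0.12, with unadjusted edgeR p of 0.199 and 0.311. That of Meis2 was -0.26, the 1 member with an unadjusted edgeR p below 0.05 (0.0201) under this scaling. The scaling moved all genes alike, with a median of -0.16 over all tested genes. The part of the effector genes in the levels of Rxrg and Six3 was not tested.

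Of 6 tested direct pathway genes, Pdyn, which encodes the dynorphin precursor, had an unadjusted p below 0.05 (log2 fold change 0.20), and Drd1 was 488.7 ± 31.6 and 477.0 ± 27.3 CPM (SD, n = 4). Of 7 tested indirect pathway genes, Drd2 was 1 of 2 with an unadjusted p below 0.05 (446.3 to 508.4 CPM, log2 fold change 0.19), and the receptor phosphatase gene Ptprm was the other (-0.23, and -0.13 with an unadjusted edgeR p of 0.151 without saline rat 3). None of these passed the FDR threshold, and 11.1% of all tested genes had an unadjusted p below 0.05. Median log2 fold changes were 0.10 for the shared effector genes, 0.03 for the direct pathway list and -0.06 for the indirect pathway list.

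The close relatives of the members were then listed. Of 11 tested paralogs, 0 passed the FDR threshold and 4 had an unadjusted p below 0.05, of which 3 were higher, beside 11.1% of all tested genes. The groups of 3 of the 11 did not overlap, beside 6.39% of all tested genes. Rarg, the third retinoic acid receptor, was 8.50, 11.3, 8.88 and 10.1 CPM in saline rats and 14.1, 15.0, 16.3 and 12.96 CPM in METH rats. All 4 METH rats lay above all 4 saline rats. Its log2 fold change was 0.59 (SE 0.14) with an edgeR FDR of 0.105, and it passed an FDR of 0.05 in the exact test of edgeR (0.0188) and in DESeq2 (0.0109). Rxrb, a retinoid X receptor of broad expression, was 149.1 to 162.7 CPM in saline and 165.6 to 206.8 CPM in METH rats, also without overlap (log2 fold change 0.19, edgeR FDR 0.422). METH rat 3 was its highest value, and without that rat the log2 fold change was 0.12 with an unadjusted edgeR p of 0.113. Rara was 7.14 ± 1.31 and 7.49 ± 0.56 CPM and Rxra 13.999 ± 2.25 and 15.6 ± 0.51 CPM (SD, n = 4), and neither was separated between groups. Meis1, the homeodomain paralog of Meis2, had a log2 fold change of 0.26 (edgeR FDR 0.443, and 0.17 without saline rat 2), opposite in sign to that of Meis2, and the difference between them was not tested. Ikzf5, an Ikaros relative, was lower in all METH rats, at 13.8 to 20.1 CPM against 20.5 to 23.5 CPM (log2 fold change -0.34, edgeR FDR 0.354).

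**Figure D3:**
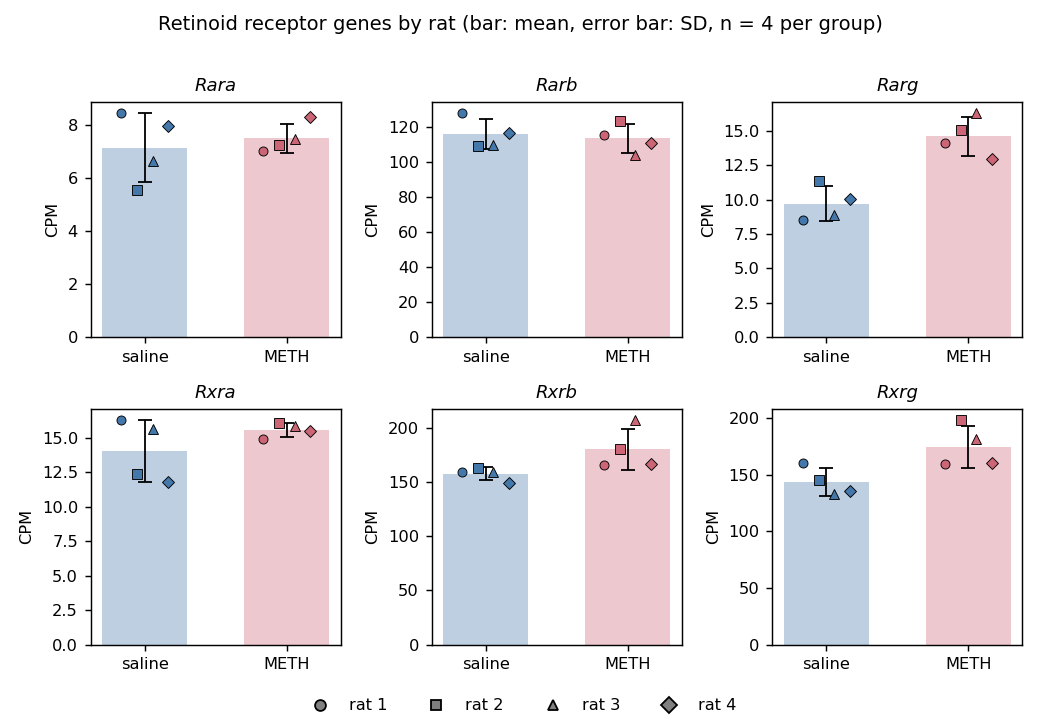
Levels of the 6 retinoid receptor genes, 1 panel per gene, with CPM on the vertical axis from 0 and the saline and METH groups on the horizontal axis; points are single rats, bars are group means and error bars are SD with 4 rats per group. The METH rats lie above all saline rats for Rarg (means 9.70 and 14.6 CPM) and Rxrb (157.6 and 180.0 CPM), and the groups overlap for Rara, Rarb and Rxra. For Rxrg, 3 of 4 METH rats lie above all saline rats, METH rat 4 only barely (160.7 CPM against 160.4 CPM in saline rat 1).

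Of 14 tested genes of retinoid synthesis, transport, breakdown and receptor co-regulation, 0 passed the FDR threshold and 9 had a higher mean in METH rats. The groups of 2 did not overlap, beside 6.39% of all tested genes. An unadjusted p below 0.05 was found for 1 gene, beside 11.1% of all tested genes. That gene was Aldh1a1, a retinaldehyde dehydrogenase that makes retinoic acid, at 6.91, 9.40, 9.46 and 4.58 CPM in saline rats and 13.99, 9.85, 14.1 and 12.1 CPM in METH rats. The groups did not overlap, though METH rat 2 lay close to saline rats 2 and 3. Its log2 fold change was 0.72 (SE 0.22) and its edgeR FDR 0.233. Aldh1a1 is also known from the axons of midbrain dopamine neurons. Th, a marker of those neurons, was at or below 0.95 CPM, and the cells that gave the Aldh1a1 reads were not tested. Rbp4, which encodes the retinol carrier, was separated as well (79.3 to 92.0 and 92.3 to 99.2 CPM) with an unadjusted edgeR p of 0.0690.

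Of 18 other tested transcription factors of the striatal lineage, 0 passed the FDR threshold and 12 had a lower mean in METH rats. Dlx5, a homeodomain factor of GABAergic precursors (37.7 to 47.0 CPM, log2 fold change 0.32), and Pou3f1, a POU domain factor (238.7 to 276.8 CPM, 0.21, and 0.13 without saline rat 2), were the 2 with an unadjusted p below 0.05, and both were higher. These 2 of 18 stand beside 11.1% of all tested genes, and the median of this list was -0.04.

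The levels of pairs of members were then compared within each rat, since a ratio of 2 counts in 1 library does not depend on how libraries are scaled. In 2 of 6 pairs the groups did not overlap, and the share over pairs of all genes was not computed. These 2 pairs hold Rxrg and Six3, the members with the lowest p, so they are not independent of the differences given above and add no separate support. Their partners Rarb and Meis2 had log2 fold changes of -0.03 and -0.12. The ratio of Rxrg to Rarb counts was 1.25, 1.33, 1.21 and 1.16 in saline rats and 1.38, 1.603, 1.74 and 1.45 in METH rats, a 1.24-fold difference of the geometric means (0.31 on the log2 scale). The ratio of Six3 to Meis2 was 0.182, 0.169, 0.200 and 0.193 in saline rats and 0.209, 0.266, 0.293 and 0.218 in METH rats, a 1.31-fold difference (0.39 on the log2 scale). For both pairs the exact two-sided permutation p was 0.0286, the smallest that 4 rats against 4 can give, and 0.0857 after Benjamini-Hochberg adjustment over the 6 pairs. With 1 rat left out, the unadjusted permutation p rose to as much as 0.0571 for Rxrg to Rarb and 0.0857 for Six3 to Meis2. Ratios of Ebf1, Isl1 and Foxp2 to Foxp1 and of Ikzf1 to Bcl11b overlapped between groups, with exact permutation p of 0.314 to 0.971. Ebf1 to Foxp1 was 0.0971 to 0.124 in saline and 0.0972 to 0.119 in METH rats, almost the same range. Isl1 to Foxp1 was 0.0853 to 0.0931 in saline rats and 0.0601 to 0.0995 in METH rats, a wider spread in METH rats on either side.

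**Figure D4:**
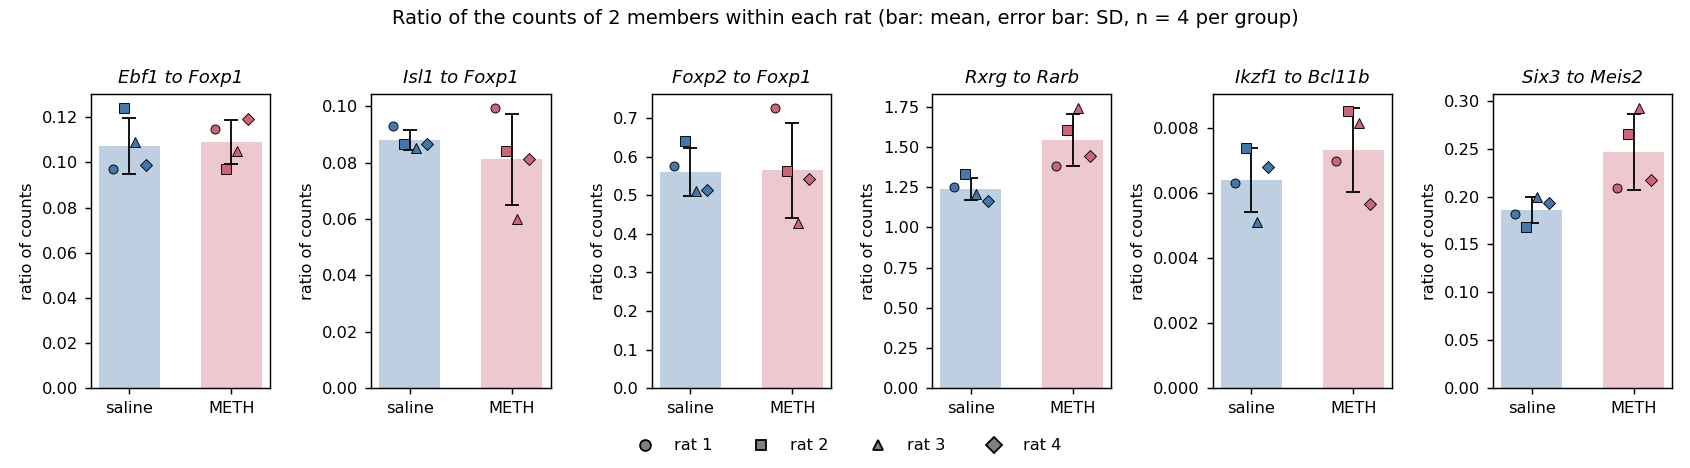
Ratio of the counts of 2 members within each rat, 1 panel per pair, on the vertical axis from 0, with the saline and METH groups on the horizontal axis; points are single rats, bars are group means and error bars are SD with 4 rats per group. The groups are apart for Rxrg to Rarb (1.16 to 1.33 against 1.38 to 1.74) and Six3 to Meis2 (0.169 to 0.200 against 0.209 to 0.293) and overlap in the other 4 panels.

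Several members shared their differences between rats. METH rat 2 was above the mean of the 8 rats for 10 of 10 members, and saline rat 2 was below it for 9 of 10. METH rat 3 was below the mean for 7 members, most for Isl1 (-0.62) and Foxp2 (-0.52) on the log2 scale, but above it for Six3 (0.25), Rxrg (0.20) and Ikzf1 (0.09). Saline rats 3 and 4 were above the mean for Foxp1, Bcl11b, Meis2, Isl1, Foxp2 and Ebf1 and below it for Rxrg (-0.25 and -0.22).

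**Figure D5:**
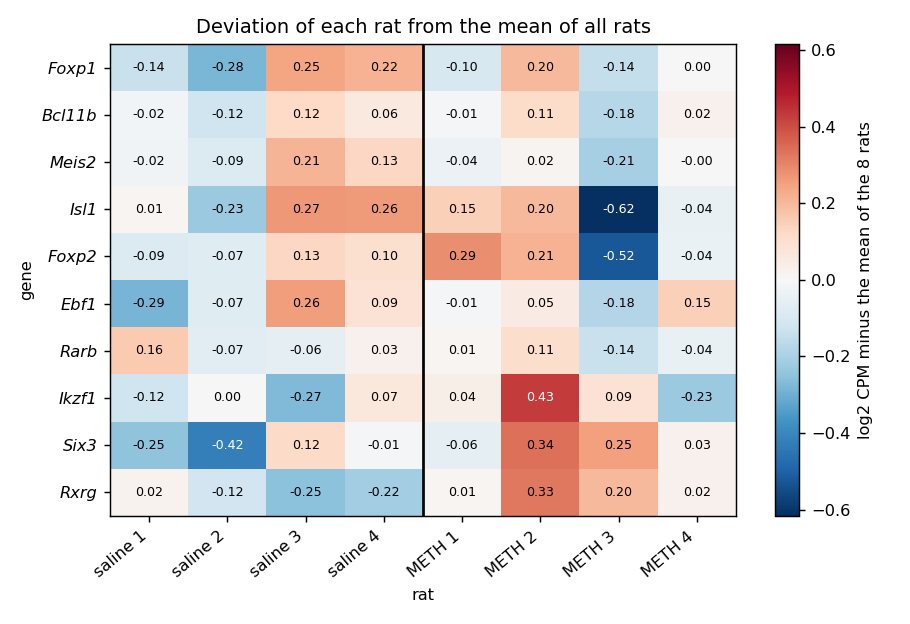
Deviation of each rat (columns, saline rats left of the black line and METH rats right of it) from the mean of the 8 rats for each member (rows), in log2 CPM, with red above and blue below the mean and the value printed in each cell. Foxp1, Bcl11b, Meis2, Isl1, Foxp2 and Ebf1 are all above the mean in saline rats 3 and 4 and all below it in METH rat 3, where Six3, Rxrg and Ikzf1 are above it.

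Pearson's r was computed over the 8 rats for the 45 pairs of members, and 5 pairs had a Benjamini-Hochberg adjusted permutation p below 0.05, each 0.0377. The share of such pairs among all tested genes was not computed. Bcl11b and Isl1 had r = 0.920 and Spearman's rho = 0.905, with r = 0.708 without the 2 rats farthest from the median of Bcl11b. For every pair, the 2 farthest rats were chosen by the first-named gene alone. Bcl11b followed Meis2 with r = 0.887 and rho = 0.952, and 0.747 without the 2 farthest rats. Foxp1 and Bcl11b had r = 0.878 and rho = 0.952, and 0.842 without them. For Isl1 and Meis2 the values were r = 0.877, rho = 0.905 and 0.727. Foxp2 and Isl1 had r = 0.915 but rho = 0.714, whose adjusted permutation p was 0.236, and r was 0.827 without the 2 farthest rats. The permutation p of rho was 0.0342 for Bcl11b with Isl1 and for Isl1 with Meis2 and 0.0171 for Foxp1 and Meis2 with Bcl11b, adjusted over the 45 pairs. After the group means were removed, these 5 values of r were 0.879 to 0.956. All levels of 1 rat come from 1 library, so they share its dissection and composition, and METH rat 3 was low for each gene of these 5 pairs. By rho but not by r, Foxp1 also passed with Meis2 (rho 0.952, adjusted permutation p 0.0171) and with Isl1 (rho 0.905, adjusted permutation p 0.0342).

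Ebf1, Rarb, Rxrg, Ikzf1 and Six3 were in none of these pairs. The r of Rxrg with Meis2 was -0.607 (rho -0.405, adjusted permutation p 0.313 and 0.5998) and with Six3 0.519 (rho 0.476, adjusted permutation p 0.439 and 0.547), so neither relation passed the test. The r of Rarb and Rxrg, the receptor partners, was 0.205 (rho 0.143, adjusted permutation p 0.801 and 0.825), and -0.536 without the 2 rats farthest from the median of Rarb.

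The gene whose pattern over the 8 rats was most like a member, of 12013 candidates, is given for 9 members and was named by Pearson's r as a description. It was Lppr5 for Foxp1 (r = 0.992), Naa15 for Foxp2 (0.992) and Exoc5 for Meis2 (0.994). It was Etv3 for Ebf1 (0.972), Plcl1 for Isl1 (0.981), Acsl6 for Rarb (0.949) and Sirt6 for Rxrg (0.982). Arhgap11a was nearest to Ikzf1 (0.958) and Gtpbp1 to Six3 (0.970), and rho of these 9 pairs was 0.905 to 1. Each of these 9 had its candidate at r = 0.949 or above, chosen as the highest of 12013.

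Other cell types of the dissected tissue were followed by fixed marker lists, none of whose genes other than Cx3cr1 passed the FDR threshold. Interneuron markers had 0 of 13 and cortical markers 0 of 4 tested genes with an unadjusted p below 0.05, beside 11.1% of all tested genes. Of 7 astrocyte markers, 4 had a higher and 3 a lower mean in METH rats, and their summed level was 3214 to 3883 CPM in saline and 3205 to 4158 CPM in METH rats. The 1 with an unadjusted edgeR p below 0.05 was the connexin gene Gjb6, with a higher mean (26.9 to 36.6 CPM, log2 fold change 0.44, edgeR FDR 0.137). The oligodendrocyte lineage genes Pdgfra (-0.32) and Olig2 (-0.28) and the vascular genes Flt1 (-0.21) and Pdgfrb (-0.28) had lower means, each with an unadjusted edgeR p below 0.05, though Flt1 was -0.12 with an unadjusted edgeR p of 0.190 without saline rat 2. Csf1r, a microglial receptor, had a log2 fold change of -0.22. Of 8 tested diencephalic genes, Zic2 (-0.47) and Oxt (3.64) had an unadjusted edgeR p below 0.05, and Oxt, the oxytocin precursor, was 49.8 CPM in METH rat 4 against 0.0472 to 3.75 CPM in the other rats. Summed levels of oligodendrocyte markers were 13389 to 19221 CPM in saline and 12607 to 18717 CPM in METH rats. Saline rat 2 was the highest rat for this sum and for that of the vascular markers (622.6 CPM). The part of these markers in the levels of the 10 factors was not tested.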

How the data were processed

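Poly(A) RNA libraries (TruSeq RNA v2, which does not mark strand) of the striatum of 4 METH and 4 saline rats were analysed. The authors removed adapters (Cutadapt 1.18), mapped reads to the rn6 assembly (STAR 2.7.0e) and deposited raw gene counts from featureCounts (Subread 1.6.4), 1 column per rat. The annotation and the treatment of multiply mapped reads are not given in the sources used here. Total counts were 18135939 to 21211920 per rat, and intervals include the spread between rats.

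From the counts, genes were filtered with filterByExpr (minimum count 10), scaled by TMM and compared by the edgeR 4.0.16 quasi-likelihood test in R 4.3.3, with p adjusted by Benjamini-Hochberg over 12014 genes. Calls required an FDR under 0.05 and an average log2 CPM over 1. Log2 CPM used a prior count of 2, and 95% intervals used the t quantiles of that fit. Single values were compared by exact permutation over 70 labelings. The scripts were tested on simulated data. Alternatives were limma 3.58.1 (voom), DESeq2 1.42.0, the exact test and robust fit of edgeR, other scalings and filters, the rat number as a block, and each rat left out.

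The members and gene lists were chosen with earlier results of these data known. Members are given in full. Of other lists, called genes or up to 3 genes with the lowest unadjusted p below 0.05 are named, and separated retinoid and paralog genes were added after their values were seen, as were the cholinergic genes and the leaving out of saline rat 1 with METH rat 3. Promoters came from RefSeq (GRCr8), matched by symbol for 7 of 10 members. The gene most like Bcl11b is not reported here.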

Additional observations from a re-analysis of the deposited data

Results flagged for a closer look

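No group of 4 rats held an outlying value of a member: in 0 of 20 groups (10 genes, 2 treatments) did the gap of the highest or lowest rat to its neighbour, as a share of the group's range, pass the 95% limit of Dixon's test for 4 samples. Among 30 groups of 4 rats for the summed levels of the gene lists and the first principal component, 2 passed, and chance alone passes about 1 in 20. The summed level of diencephalic markers in METH rat 4 had a gap of 0.876 of the range of its group, at 165.4 CPM against 89.1 to 96.2 CPM in the other METH rats. Saline rat 2 was also high in this sum, at 147.7 CPM against 87.2 to 100.4 CPM in the other saline rats. Its gap of 0.733 did not pass the limit. The position of METH rat 3 on the first principal component, 39.5 against 0.26 to 5.29 in the other METH rats, had a gap of 0.872. METH rat 3 was also the lowest rat for Foxp2, Bcl11b, Isl1, Meis2 and Rarb. Their cause was not tested.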

How the results depend on the processing

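None of the 10 members was called under any of 20 alternatives. The genes called numbered 62, and 168 with the exact test of edgeR, 186 with DESeq2, 37 with the rat number as a replicate block, 36 without saline rat 1 and METH rat 3 (chosen after seeing the data), and 37 to 70 with 1 rat left out, the lowest without saline rat 2. The log2 fold change of Rxrg stayed above 0 in all 20 alternatives (0.22 to 0.34 with 1 rat left out), with an unadjusted p below 0.05 in 19 of them, and that of Six3 in 13 (0.19 to 0.36). Scaling to the effector genes moved the median of the members to -0.16, the median of all genes to -0.16, Rara to -0.0772 and Rbp4 to -0.0098, and total count scaling moved the median of all genes to -0.04. The replicate block gave Ebf1 a log2 fold change of 0.0040, and leaving out the 2 rats gave 0.11 for Foxp2, 0.0182 for Bcl11b and 0.0593 for Rarb. With 1 rat left out, log2 fold changes ranged from -0.123 to 0.0462 for Foxp1, -0.10 to 0.14 for Foxp2, -0.0643 to 0.0299 for Bcl11b, -0.0919 to 0.0871 for Ebf1, -0.230 to 0.0120 for Isl1, -0.0740 to 0.0206 for Rarb and -0.0331 to 0.160 for Rara, so the signs of these small values depend on single rats. Those of Meis2 (-0.16 to -0.07, smallest without saline rat 3) and Ikzf1 (0.05 to 0.28, smallest without METH rat 2) kept their sign. Differences of log2 ratios to Foxp1 ranged from -0.0193 to 0.0993 for Ebf1, -0.24 to 9.26e-06 for Isl1 and -0.14 to 0.11 for Foxp2. The count of members with an exact permutation p below 0.05 was 0, and 0 to 1 with 1 rat left out, where Rxrg reached 0.0286 without saline rat 1. The exact permutation p of Rxrg was highest, at 0.143, without saline rat 3 and also without saline rat 4, against 0.0571 with all rats. The count of ratio pairs with such a p was 2, and 0 to 3 with 1 rat left out. The Rxrg to Rarb difference stayed at 0.25 to 0.36 and the Six3 to Meis2 difference at 0.31 to 0.47. The call of Cx3cr1 was lost in 7 of 20 alternatives, and Rarg and Gjb6 were called in 2. Rat numbers are shared by the groups, but same-numbered rats are different animals, and their deviations correlated by 0.01, -0.19, -0.20 and 0.04. Where not stated, the cause was not tested. Depth limits Ikzf1 most, with 53 to 94 reads per library.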
